A study of Homo sapiens with 8 samples.

Results

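The genes described here are the numbered zinc finger (ZNF) genes of human chromosome 19. A probe of the array was a member when its gene name was ZNF followed by digits and at most 1 letter and its position in the array design lay on chromosome 19. This gave 245 genes with 367 probes, of 36337 gene names and 50599 probes in all. Of the genes, 145 had 1 probe, 80 had 2, 18 had 3 and 2 had 4. The rule used names and positions and no measured value.

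RNA was measured in FT293 cells, human embryonic kidney HEK293 cells made with the Flp-In T-REx system, in which tetracycline switches on a transgene inserted at a prepared site. The 4 lines expressed GFP alone, or GFP-tagged HuR, TIA1 or TIAR, and all were treated with tetracycline and harvested on day 3. HuR stabilizes many mRNAs with AU-rich elements, and TIA1 and TIAR are related RNA-binding proteins that regulate splicing and repress translation. Each line had 2 one-colour arrays, described as independent biological replicates, and GFP was the control for the tag and the treatment. Because each protein had its own line, an effect of the protein and another difference between the lines cannot be told apart. The p-values below rest on the spread between arrays of the same line.

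Most ZNF genes of chromosome 19 encode C2H2 zinc finger proteins, and many of these carry a KRAB box. They arose by repeated tandem duplication and stand in clusters of near relatives. The fingers bind DNA, often within transposable elements, and the KRAB box recruits TRIM28 (KAP1), which brings in the histone methyltransferase SETDB1, HP1 proteins and histone deacetylases. The protein products therefore act as sequence-specific repressors.

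The genes were ordered by probe position on hg19 (GRCh37), and a new block began where neighbours lay more than 1 Mb apart. This gave 9 blocks of at least 5 genes, which held 234 of the 245 genes. Block 1 (2.84 to 2.93 Mb) held 5 genes, block 2 (7.09 to 9.87 Mb) 16, block 3 (11.6 to 12.74 Mb) 26 and block 4 (19.79 to 24.31 Mb) 34. Block 5 (35.17 to 35.45 Mb) held 5 genes, block 6 (36.67 to 38.23 Mb) 26, block 7 (44.04 to 45.58 Mb) 23, block 8 (52.09 to 54.08 Mb) 40 and block 9 (56 to 58.99 Mb) 59. Block 4 ran from ZNF101 to ZNF254 and includes ZNF91.

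Promoters of 5 genes are printed. ZNF730, ZNF257, ZNF671 and ZNF93 had the largest fitted differences between TIA1- and HuR-expressing cells, and ZNF497 was the only gene lower in TIA1-expressing cells. ZNF738 is named only. The sequences are those of RefSeq (GRCh38.p14), from 250 bases before to 50 bases after the start of the gene, read 5′ to 3′ on the strand of the gene. Capitals mark each CCAAT or, on the other strand, ATTGG. ZNF730 lies at chr19:23116775-23117074 on the plus strand, ZNF257 at chr19:22052234-22052533 on the plus strand and ZNF93 at chr19:19900696-19900995 on the plus strand, all in block 4. ZNF671 lies at chr19:57727575-57727874 and ZNF497 at chr19:58362702-58363001, both on the minus strand and in block 9.
ZNF730: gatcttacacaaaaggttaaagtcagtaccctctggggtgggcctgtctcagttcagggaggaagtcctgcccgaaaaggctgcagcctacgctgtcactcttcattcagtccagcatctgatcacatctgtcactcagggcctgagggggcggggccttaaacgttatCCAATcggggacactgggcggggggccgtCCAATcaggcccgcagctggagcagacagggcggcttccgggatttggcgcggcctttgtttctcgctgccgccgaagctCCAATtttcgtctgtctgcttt
ZNF257: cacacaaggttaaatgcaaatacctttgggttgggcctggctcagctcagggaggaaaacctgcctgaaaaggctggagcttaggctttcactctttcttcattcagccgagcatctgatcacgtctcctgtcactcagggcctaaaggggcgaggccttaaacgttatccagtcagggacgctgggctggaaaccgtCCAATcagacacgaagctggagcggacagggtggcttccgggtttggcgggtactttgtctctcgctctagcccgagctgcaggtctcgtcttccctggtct
ZNF93: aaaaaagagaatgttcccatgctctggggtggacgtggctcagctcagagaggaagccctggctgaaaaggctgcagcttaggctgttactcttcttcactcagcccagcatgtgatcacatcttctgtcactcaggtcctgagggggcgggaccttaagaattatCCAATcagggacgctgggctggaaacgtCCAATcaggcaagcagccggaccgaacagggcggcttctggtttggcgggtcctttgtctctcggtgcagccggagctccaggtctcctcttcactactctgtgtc
ZNF671: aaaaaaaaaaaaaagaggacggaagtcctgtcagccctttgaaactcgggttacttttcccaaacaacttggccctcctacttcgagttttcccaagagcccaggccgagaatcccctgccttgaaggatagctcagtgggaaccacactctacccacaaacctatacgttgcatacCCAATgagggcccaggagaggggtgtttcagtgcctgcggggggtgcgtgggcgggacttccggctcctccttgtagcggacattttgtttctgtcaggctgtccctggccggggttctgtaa
ZNF497: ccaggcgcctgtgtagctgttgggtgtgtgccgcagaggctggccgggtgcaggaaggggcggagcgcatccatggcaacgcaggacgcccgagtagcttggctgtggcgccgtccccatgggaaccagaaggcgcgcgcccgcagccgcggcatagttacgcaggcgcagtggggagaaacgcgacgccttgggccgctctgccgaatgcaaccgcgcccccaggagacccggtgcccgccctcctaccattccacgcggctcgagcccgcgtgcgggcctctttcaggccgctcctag
Most promoters of block 4 resembled that of ZNF730. Identity to the ZNF730 promoter, counted from the edit distance, was 77.7% for ZNF257 and 74% for ZNF93, against 48.3% for ZNF671 and 46.7% for ZNF497. Over the 26 promoters of block 4 in the RefSeq table, ZNF730 itself included, the median identity was 75.7%. Over all 208 promoters of the zinc finger genes it was 46.7%. In block 4, 22 of the 26 reached 65%, while ZNF101, ZNF14, ZNF429 and ZNF708 were at 48.7% to 55.3%. Other pairs of promoters were not compared. CCAAT on either strand was present in 26 of the 26 promoters of block 4 (100%), in 52.9% of the 208 and in 35.7% of 27305 promoters of all genes. A pair of CCAAT motifs starting within 50 bases of each other was present in 18 of the 26 (69.2%), against 6.6% of all promoters. Block 1, with no called gene between TIA1 and HuR, held the motif and the pair in 5 of 5 promoters, and block 3 held the motif in 91.3% and the pair in 8.7% of 23. In block 4, the pair was present in 6 of 9 promoters of genes that were higher in TIA1- than in HuR-expressing cells (66.7%) and in 12 of 17 others (70.6%). The promoters of all 208 genes held a median of 20 CG dinucleotides, against 14 over all promoters and 10 in block 4. All 245 genes were matched to the RefSeq table, 242 by symbol and 3 by accession or older symbol, and 208 of them had a promoter.

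The arrays differed in quality, and GFP 1 stood apart. Between 53.2% and 58.5% of all probes were well above background (a flag of the scanner software) on 7 arrays and 86% on GFP 1, whose local background was 90 against 37.4 to 43.5 intensity units on the others. Of the member probes, 95.6% were well above background on GFP 1 and 85.8% to 89.9% on the other arrays. The replicate arrays correlated over the member probes at 0.951 for GFP, 0.998 for HuR, 0.99 for TIA1 and 0.991 for TIAR. Between the replicates 8.89% of member probes differed at least 2-fold in GFP, 0.935% in TIA1 and 0% in HuR and TIAR. A TIAL1 probe, the gene of TIAR, was at log2 5.47 and 5.56 in TIAR-expressing cells and between 2.2 and 3.14 on the other arrays. Probes of ELAVL1 (HuR) and TIA1 were not higher in the lines that express them. Whether these probes lie in the part of the mRNA that the transgene carries was not determined, so they check neither label. The source name of TIA1 2 names another TIA construct than its title, which was followed here. Of 8 marker genes of HEK293 cells, 7 were detected in a line, that is, flagged on both of its arrays. In bulk RNA, fewer cells that express a gene and less of its RNA per cell cannot be told apart.

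The values below are log2 processed signals minus the 75th percentile of their array, so that 0 is the 75th percentile. Signals of different probes are not compared. A comparison tested the probes detected in either of its lines, and a probe was called when limma gave an adjusted p (Benjamini-Hochberg) under 0.05 and the lines differed 2-fold or more. Nearly all of the family was expressed, with 227 of 245 genes detected in at least 1 line and 212 in all 4. The other 18 genes were detected in no line.

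Zinc finger genes were mostly higher in TIA1- than in HuR-expressing cells where they differed. Of 329 member probes tested, 29 were higher and 1 was lower, and these belong to 26 and 1 of 224 genes. The share called was 9.12%, below the 13.3% of all tested probes. The share of higher probes, 8.81%, was close to the 7.69% of all probes, while 0.304% of member probes and 5.57% of all probes were lower. The median log2 difference was 0.21 over the member probes and 0.02 over all probes. Of 87 member genes with several tested probes, 12 had a called probe, and in 2 of them all tested probes were called. On other chromosomes 22 of 370 ZNF probes were higher and 19 lower, and 181 of 1434 probes of other genes of chromosome 19 were higher and 41 lower. Some markers of cell types moved in the same comparison. Of 3 tested blood genes CD14 was higher in TIA1-expressing cells, and the summed signal of the 5 blood genes was 1.86 and 1.87 times the 75th percentile there, against 1.02 and 0.893 in HuR-expressing cells. HBB and CD3E were not well above background in either line. Of 3 tested fibroblast genes LUM was called lower in TIA1-expressing cells. COL1A1 and DCN went the other way without a call. COL1A1 was at -0.85 and -1.09 in TIA1- and -1.73 and -1.76 in HuR-expressing cells. DCN was at -3.40 and -3.71 in TIA1- and -3.89 and -3.85 in HuR-expressing cells. Of 7 HEK293 genes LHX1 was higher and NEFL lower. Their part in the differences was not tested.

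The share of called genes ranged from 0% to 38.7% over the blocks. In block 4, 12 of 31 tested genes were higher in TIA1-expressing cells (38.7%), in block 8 it was 7 of 36 (19.4%) and in block 3 it was 4 of 23 (17.4%). The median log2 difference of the tested genes was no larger in block 4 than in block 8. With 1 probe per gene it was 0.31 in block 4, 0.37 in block 8 and 0.31 in block 3. Blocks 2 and 7 had 1 higher gene each, block 9 had 1 higher and 1 lower of 55, and blocks 1, 5 and 6 and the genes outside the blocks had none. Among probes of genes other than ZNF that lie within the span of block 4, 2 of 24 were higher (8.33%), against 13 of 45 ZNF probes (28.9%). In block 8 the shares were 15% of 20 probes of other genes and 13.3% of 60 ZNF probes, and in block 3 they were 20% of 10 and 16.7% of 30. In block 7 they were 24.3% of 37 and 3.45% of 29, in block 2 15% of 60 and 6.25% of 16, in block 9 11.5% of 61 and 1.33% of 75, and in block 6 2.33% of 43 and 0% of 44. With normexp background correction 9 genes of block 4 were higher, but only 1 each of blocks 3 and 8. With the authors' values 9 genes of block 4, 0 of block 3 and 1 of block 8 were higher.

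**Figure D1:**
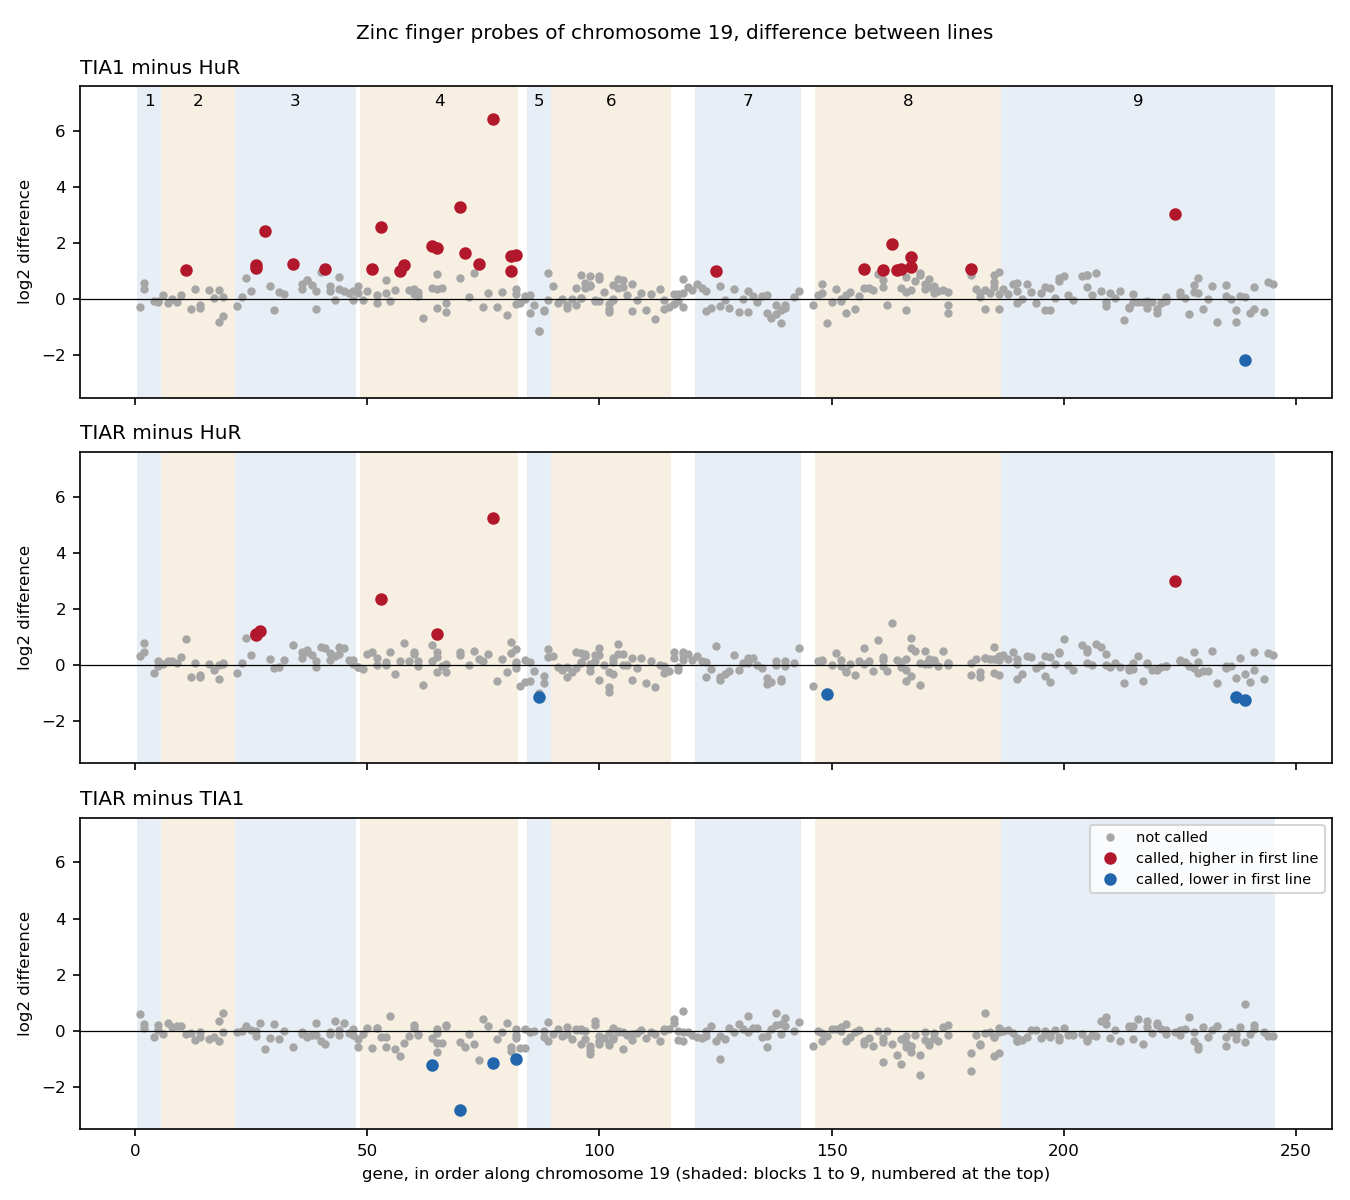
Log2 difference of every tested probe of the zinc finger genes between 2 lines (vertical axis), with the genes in their order along chromosome 19 (horizontal axis) and blocks 1 to 9 shaded. Red points were called higher and blue points lower in the line named first, grey points were not called, and probes not well above background in a line are drawn at their fitted value. Of the 29 red points for TIA1 minus HuR, 13 lie in block 4.

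**Figure D2:**
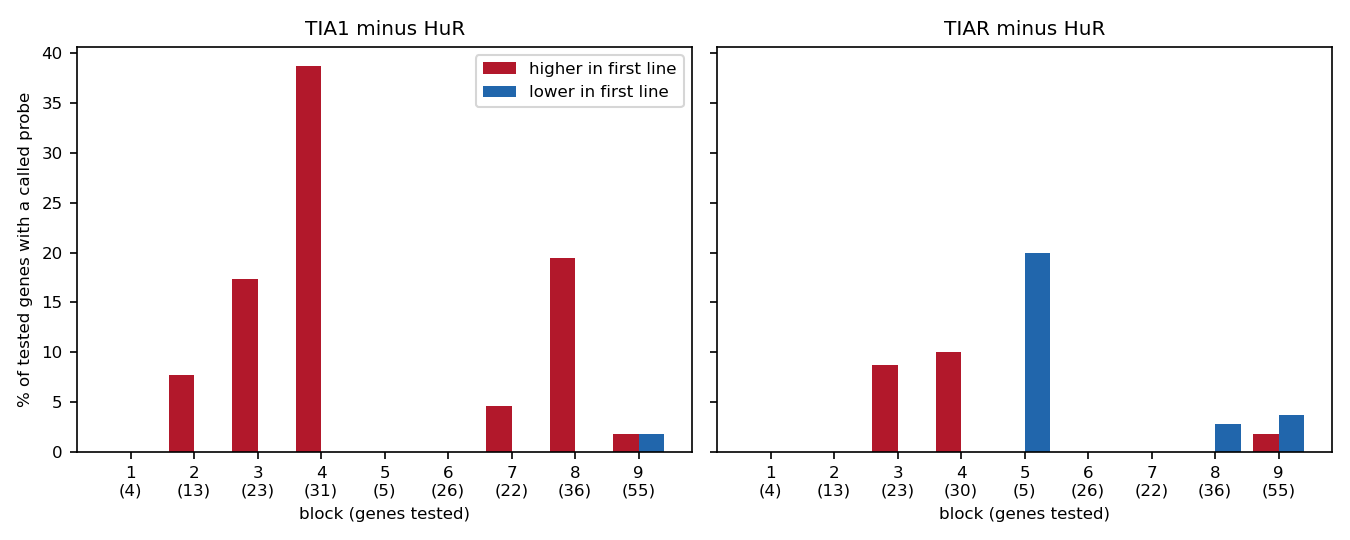
Percent of tested genes of each block with a called probe (vertical axis), for TIA1 minus HuR and TIAR minus HuR, with the number of genes tested under each block. Block 4 reached 38.7% higher genes in TIA1-expressing cells.

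ZNF730, a KRAB zinc finger gene of block 4, differed most between TIA1- and HuR-expressing cells. Its probe was at -7.54 and -7.74 on the HuR arrays, where it was not well above background. It was at -1.29 and -1.16 on the TIA1 arrays, -2.38 and -2.38 on the TIAR arrays and -2.85 and -1.99 on the GFP arrays. The HuR-expressing cells were therefore the only line of the 4 without detectable signal of this probe. The signal was at least 18.1-fold higher in TIA1- than in HuR-expressing cells (adjusted p = 0.0013 from limma) and at least 8.1-fold higher in TIAR- than in HuR-expressing cells (adjusted p = 0.0024 from limma). For such a bound, the dim line was set on each array to the lowest signal that still exceeded background, or to the signal of the probe itself where that was higher. Against GFP, the HuR signal was at least 7.9-fold lower, with an adjusted p of 0.075 from limma on all arrays and of 0.008 without GFP 1. The other ZNF730 probe was detected in no line.

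ZNF93, which represses L1 retrotransposons, was also lowest in HuR-expressing cells. Its probe was at -2.93 and -2.95 in HuR-expressing cells, -1.35 and -1.23 in GFP-expressing cells, -0.23 and -0.49 in TIA1-expressing cells and -0.48 and -0.69 in TIAR-expressing cells. The HuR arrays were below all others, and the TIA1 and TIAR arrays overlapped. The log2 difference from HuR was 2.58 (standard error 0.13, adjusted p = 0.0020 from limma) for TIA1 and 2.35 (standard error 0.12, adjusted p = 0.0040 from limma) for TIAR.

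ZNF257 had a probe that split the lines in pairs. It was at -1.03 and -1.06 in TIA1-expressing cells and -1.36 and -0.96 in GFP-expressing cells, but at -4.25 and -4.43 in HuR-expressing cells and -3.71 and -4.03 in TIAR-expressing cells. TIA1 minus HuR was 3.29 (limma, standard error 0.11, adjusted p = 0.0017). The other probe of this gene ranged from 1.35 to 2.3 over the 8 arrays, and its log2 difference between TIA1 and HuR was 0.77. Probes of the same gene can report different transcripts, and which ones these report was not determined.

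ZNF738 likewise had probes that differed. The called probe was at 0.18 and 0.28 in TIA1-, -0.95 and -1 in TIAR- and -1.64 and -1.73 in HuR-expressing cells. It was at -5.32 and -7.01 in GFP-expressing cells, where it was not well above background. TIA1 minus HuR was 1.92 (limma, standard error 0.10, adjusted p = 0.0021). Against GFP the signal was at least 40.6-fold higher for TIA1, 17.5-fold for TIAR and 10.8-fold for HuR, but the adjusted p from limma was 0.051, 0.091 and 0.18. Without GFP 1 it was 0.014, 0.021 and 0.008. The other probe was between 1.69 and 2.59 on all arrays.

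The other called genes of block 4 rose in TIA1-expressing cells with smaller differences. A ZNF493 probe was at -1.94 and -2 in TIA1-, -3.82 and -3.8 in HuR-, -2.65 and -2.78 in TIAR- and -3.54 and -3.44 in GFP-expressing cells. A ZNF254 probe was at 2.15 and 2.35 in TIA1-, 0.76 and 0.57 in HuR-, 1.12 and 1.34 in TIAR- and 0.97 and 0.69 in GFP-expressing cells. For both probes the TIA1 arrays lay above all 6 others. The differences between TIA1 and HuR were 1.84 for ZNF493 and 1.58 for ZNF254, while the remaining 3 probes of each gene were not called. Over the 4 ZNF493 probes the difference ranged from -0.32 to 1.84. ZNF676 did not exceed background on either HuR array, and its TIA1 signal was higher by at least 2.2-fold. ZNF726, ZNF492, ZNF626, ZNF506 and ZNF737 were higher by 1.01 to 1.55.

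In block 4 as a whole, the TIA1-expressing cells had the highest mean of the 4 lines for 27 of 45 probes (60%), against 26.1% of all probes detected in a line. The TIAR-expressing cells were highest for 15.6% of these 45 probes (19.6% of all probes), GFP for 13.3% (26%) and HuR for 11.1% (28.3%). The 45 probes include the 13 called higher in TIA1- than in HuR-expressing cells, so these shares are not separate from those calls. The same count was not made for the other blocks. ZNF91, which represses SVA retrotransposons and has a large number of fingers, did not follow this order. It was at -1.53 and -0.89 in TIA1-, -1.01 and -0.88 in HuR-, -1.16 and -1.86 in TIAR- and -2.28 and -2.33 in GFP-expressing cells, and was called in no comparison on all arrays.

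**Figure D3:**
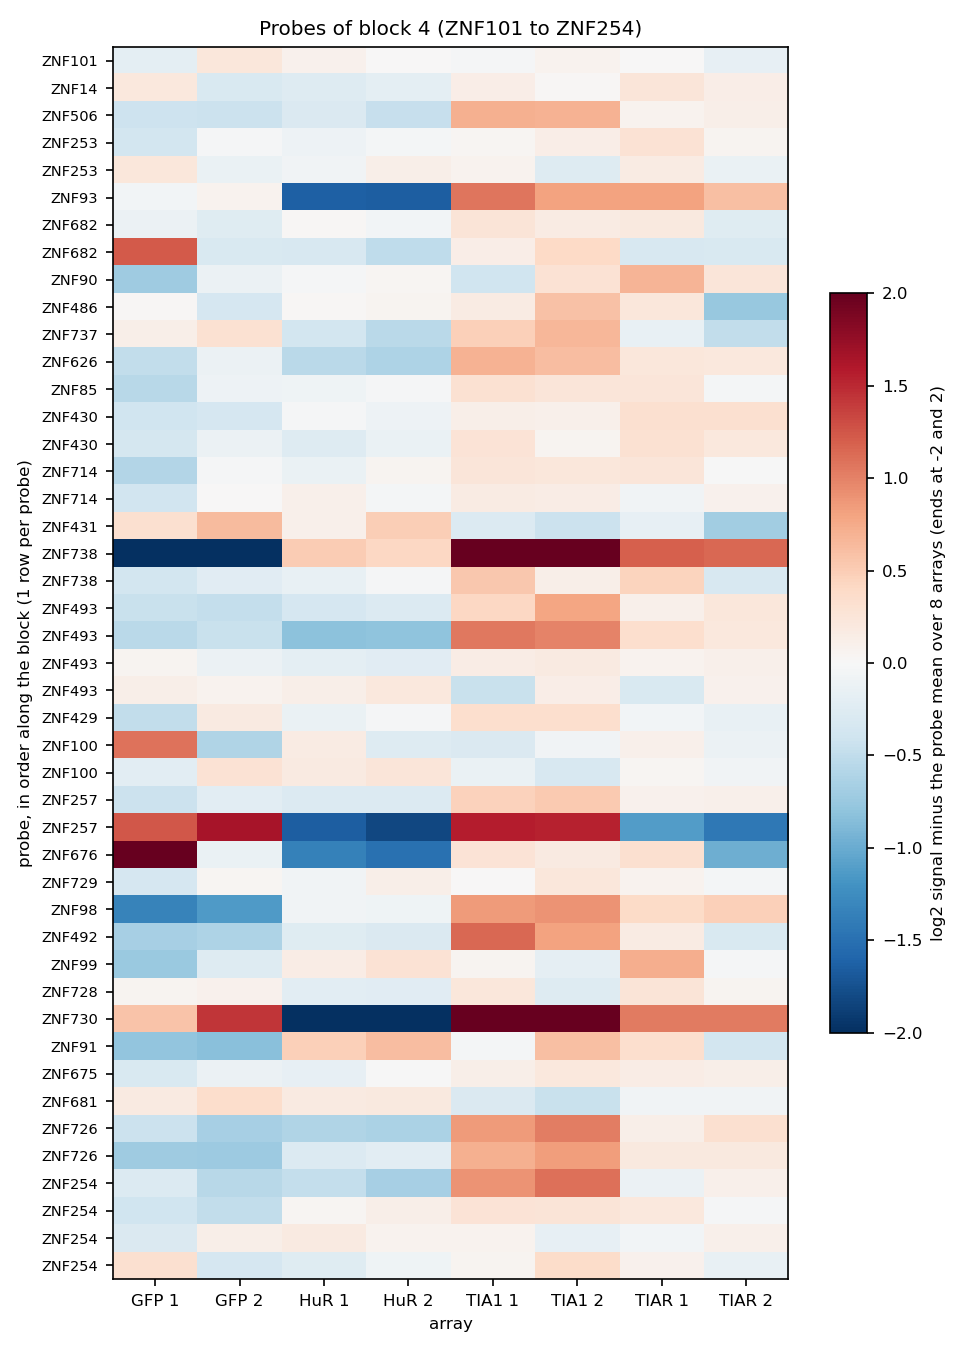
Log2 signal minus the probe's mean over 8 arrays for the 45 detected probes of block 4, 1 row per probe in order along the block and 1 column per array. Colours end at -2 and 2, and red on both TIA1 arrays is most frequent, with TIA1 highest for 27 probes.

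In block 8, ZNF534, ZNF578 and ZNF808 were the only run of at least 3 neighbouring genes that were called in the same direction. ZNF534 was at -3.86 and -3.39 in TIA1-, -4.97 and -6.23 in HuR- and -4.44 and -3.75 in TIAR-expressing cells, and at -7.4 and -6.73 in GFP-expressing cells, where it was not well above background. The probe was flagged on 1 of the HuR arrays only, so the size of its difference from HuR is uncertain. The fitted difference between TIA1 and HuR was 1.97 for ZNF534 (adjusted p = 0.033 from limma), 1.05 for ZNF578 (adjusted p = 0.011 from limma) and 1.10 for ZNF808 (adjusted p = 0.039 from limma). Called probes of ZNF836, ZNF880, ZNF677 and the pseudogene ZNF137P of the same block were higher by 1.05 to 1.51. Of the tested probes, 1 of 2 was called for ZNF808, ZNF836 and ZNF677, 1 of 3 for ZNF880 and 2 of 3 for ZNF137P. The lowest differences among the probes of these genes were 0.42, 0.41, 0.85, 0.43 and 0.35.

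In block 3, ZNF439 was well above background on both TIA1 arrays, on 1 TIAR array and on none of the GFP and HuR arrays, and was at least 2.48-fold higher in TIA1- than in HuR-expressing cells. ZNF441, its near neighbour, was at 0.3 and 0.26 in TIA1- and 0.27 and 0.31 in TIAR-expressing cells, against -0.82 and -0.83 in HuR- and -1.41 and -0.59 in GFP-expressing cells. Both ZNF441 probes were called against HuR for TIA1 and for TIAR. ZNF442 was higher in TIA1-expressing cells by 1.07. ZNF844 was higher by a fitted 1.27, with 1 of the HuR arrays flagged.

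Block 9, the block with most genes, held ZNF671, with the largest difference between TIA1 and HuR outside block 4, and ZNF497, the only lower gene. ZNF671 was at -1.79 and -1.53 in TIA1- and -1.83 and -1.58 in TIAR-expressing cells, against -4.73 and -4.66 in HuR- and -3.91 and -6.13 in GFP-expressing cells, where 1 array was flagged. The TIA1 and TIAR arrays overlapped and lay above the others, with differences from HuR of 3.04 (adjusted p = 0.0017 from limma) and 2.99 (adjusted p = 0.0039 from limma). ZNF497 was at 0.46 and 0.41 in HuR-, -0.6 and -0.16 in GFP-, -0.85 and -0.74 in TIAR- and -2.12 and -1.35 in TIA1-expressing cells. TIA1 minus HuR was -2.17 (adjusted p = 0.0078 from limma). Its second probe was at -1.54 and -0.7 in TIA1- and -1.19 and -1.21 in HuR-expressing cells and was not called.

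**Figure D4:**
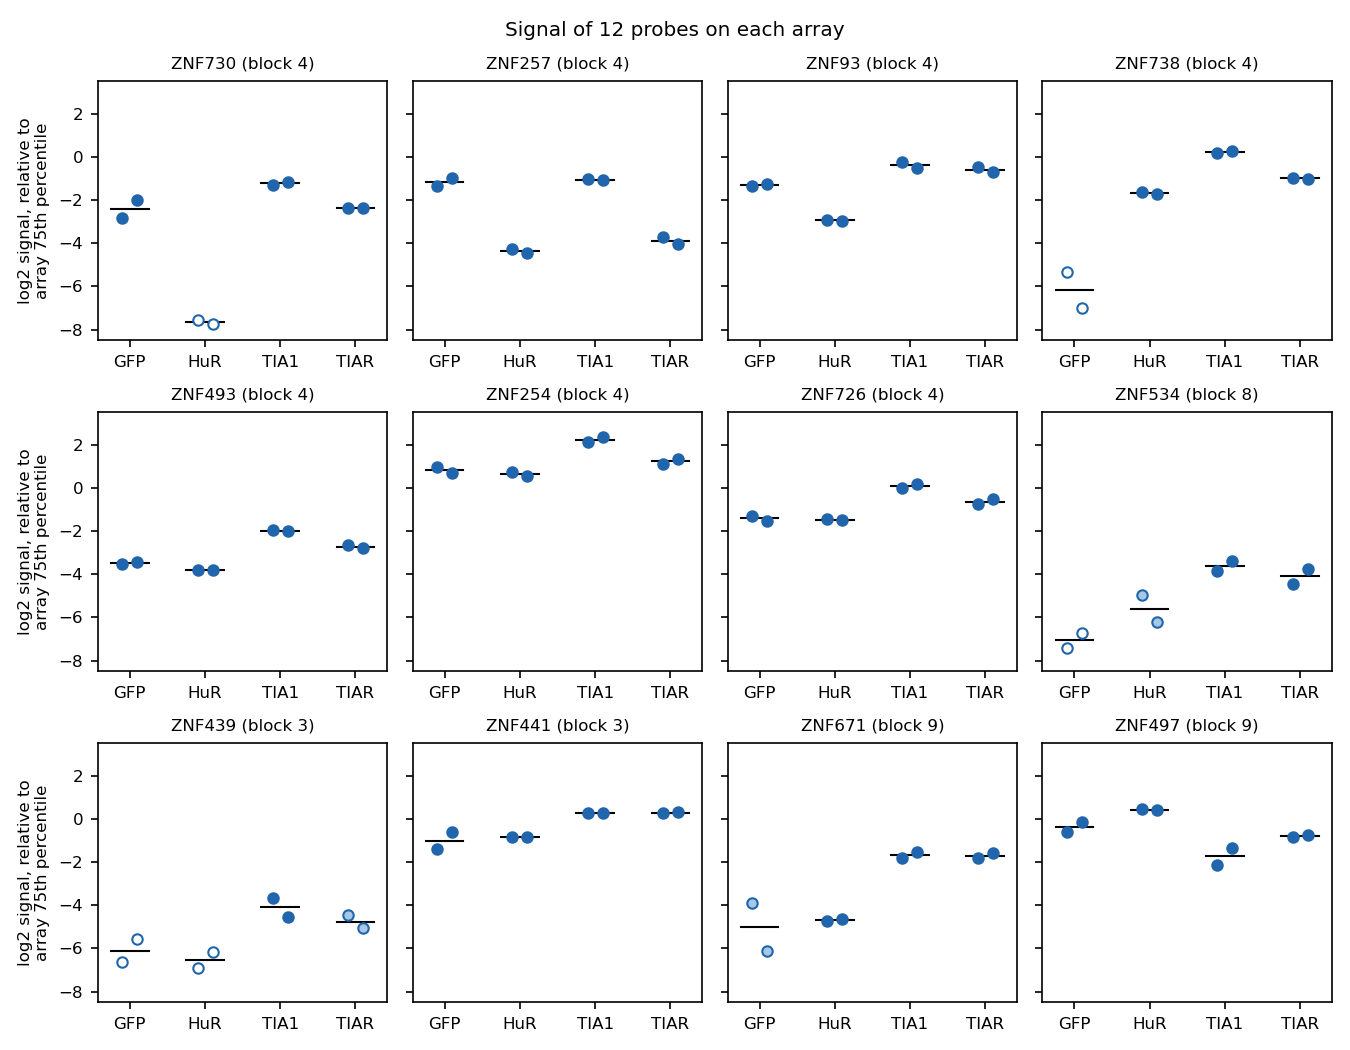
Log2 signal relative to the array's 75th percentile (vertical axis) of 12 probes in the 4 lines, 1 point per array and a bar at the mean of 2 arrays. Filled points mark a line with both arrays well above background, pale points 1 array and open points neither. ZNF730 is open in HuR at -7.54 and -7.74, and ZNF738 is open in GFP.

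Fewer members differed between TIAR- and HuR-expressing cells. Of 328 probes 3.35% were called, against 9.95% of all probes. The 7 higher probes made up 2.13% (6.71% of all probes) and the 4 lower probes 1.22% (3.24% of all probes), and the median difference was 0.08 over members and 0.02 over all probes. Besides ZNF730, ZNF671, ZNF93, ZNF441 and ZNF493, ZNF491 was higher, by at least 2.29-fold. The lower genes were ZNF497 (-1.23), ZNF544 (-1.12), ZNF649 (-1.02) and ZNF599, at least 1.64-fold lower in TIAR-expressing cells. The split depended on the scaling, with 4 higher and 6 lower after quantile normalization and 4 higher and 1 lower in the authors' values. Over all probes it was 1441 higher and 1076 lower, and 752 higher and 508 lower. When HuR 1 or HuR 2 was left out, 3 probes were called, all higher. Both comparisons use the same HuR arrays, and 7 probes of 6 genes were called in both, 23.3% of the 30 for TIA1 and 63.6% of the 11 for TIAR. The overlap over all called probes was not counted.

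The TIA lines themselves differed at 4 member probes of 325, all lower in TIAR- than in TIA1-expressing cells and all in block 4. This was 1.23%, against 2.38% of all probes, of which 1.33% were higher and 1.05% lower. The log2 differences were -2.82 for ZNF257 (adjusted p = 0.014 from limma), -1.21 for ZNF738 (adjusted p = 0.026 from limma), -1.16 for ZNF730 (adjusted p = 0.028 from limma) and -1.02 for ZNF254 (adjusted p = 0.046 from limma). Leaving out any array of these lines left 0 or 1 of the calls, and 0 remained without the filter on dim probes. Of the 29 probes higher in TIA1- than in HuR-expressing cells, the TIAR mean lay between the TIA1 and HuR means for 25. These probes were chosen for their difference between TIA1 and HuR, so another line tends to lie between. The same count over all probes was not made. Between TIAR and TIA1, 2 of 3 tested fibroblast markers, DCN and LUM, were higher in TIAR-expressing cells. The summed signal of the 7 fibroblast genes was 1.46 and 1.2 times the 75th percentile in TIAR-, 0.853 and 0.729 in TIA1- and 0.893 and 0.862 in HuR-expressing cells. The collagen gene COL3A1 and THY1 were not well above background on any array. The part of such cells in the differences was not tested.

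Against GFP no member probe was called on all arrays. For TIA1 this was 0 of 325 (0.00713% of all probes were called, 0.00357% higher and 0.00357% lower), with 60 probes (18.5%) at an unadjusted p under 0.05, against 18% of all probes. For TIAR it was 0 of 325 (0% of all probes) with 34 (10.5%, against 13.7%), and for HuR 0 of 327 (0% of all probes) with 34 (10.4%, against 13.9%). Without GFP 1, limma called 26, 10 and 18 member probes, which is 8%, 3.08% and 5.5% of those tested, against 11.9%, 6.62% and 8.54% of all probes. Without GFP 2 it called 78, 51 and 55 (24%, 15.7% and 16.8%), against 25.6%, 22.7% and 25.5% of all probes. In these fits the lone GFP array is assumed to vary like the other line. Over all probes called without GFP 1, more were higher than lower in TIA1-expressing cells. The called member probes were all higher there, and most of them lay in blocks 4 and 8. They include ZNF98, which was at 2.43 and 2.47 in TIA1-, 1.95 and 2.05 in TIAR-, 1.5 and 1.49 in HuR- and 0.23 and 0.44 in GFP-expressing cells. For the 30 probes called between TIA1 and HuR, both GFP arrays were nearer the HuR mean for 19, nearer the TIA1 mean for 5 and divided for 6. These probes were chosen by their TIA1 and HuR values, and the same count over all called probes was not made.

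Some members set a line apart from the other 3, with both of its arrays beyond all 6 others and its mean at least 2-fold from the nearest line. Of 332 member probes detected in a line, 5 were above in this way in TIA1-expressing cells (ZNF492, ZNF738, ZNF254, ZNF880 and ZNF730), while 0.477% of all probes were. None was below, against 0.764% of all probes. In HuR-expressing cells 3 were below (ZNF676, ZNF93 and ZNF730), against 2.03% of all probes, and 0 above, against 0.423%. In GFP-expressing cells 5 were below (ZNF98, ZNF383, ZNF880, ZNF738 and ZNF534), against 1.17% of all probes, and 4 above (ZNF114, ZNF541, ZNF221 and ZNF584), against 2.24%. No member probe set TIAR-expressing cells apart, against 0.372% of all probes above and 0.25% below.

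Detection separated 9 genes, each detected in 1 or more lines and flagged on neither array of another. These were ZNF730, ZNF439, ZNF676, ZNF534, ZNF491, ZNF431, ZNF599, ZNF772 and ZNF114. Apart from ZNF730, the bounds against a line with neither array flagged were under 3-fold in every comparison. Judged without GFP 1 the number was 13, and without GFP 2 it was 22. The same count was not made over all genes of the array, so whether these numbers are usual is not known.

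Members with a known role were looked up whatever their values. They were ZNF420 (a repressor of p53), ZNF274 (which recruits SETDB1 to zinc finger gene clusters), ZNF350 (a partner of BRCA1), ZNF473 (of histone pre-mRNA processing), ZNF675 (an inhibitor of TRAF6 signaling), ZNF91, ZNF146, ZNF224, ZNF331 and ZNF382. None of the 10 was called in any of 6 comparisons on all arrays. The ranges given for them here use the probe of each gene with the highest mean signal. Their differences from HuR lay between -0.34 and 0.5 for TIA1 and between -0.74 and 0.45 for TIAR, where 2 and 3 of them had an adjusted p under 0.05 from limma without reaching 2-fold. Their differences from GFP lay between -0.05 and 1.09 for TIA1, -0.27 and 0.79 for TIAR and -0.47 and 1.36 for HuR. The highest of these, ZNF91 in HuR minus GFP, was called without GFP 1 (1.38, adjusted p = 0.018 from limma). This ZNF420 probe was at 4.16 and 3.95 in TIA1-, 3.66 and 3.97 in TIAR-, 3.61 and 3.5 in HuR- and 3.36 and 3.95 in GFP-expressing cells. For it the TIA1 and TIAR arrays overlapped and both lay above the HuR arrays. Its difference between TIA1 and HuR was 0.50 (adjusted p = 0.035 from limma). The 3 tested ZNF420 probes differed, with differences from HuR of -0.04 to 0.5 for TIA1 and -0.33 to 0.26 for TIAR.

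Of the cofactors through which KRAB zinc finger proteins repress, 1 of 26 was called. All genes of the list (TRIM28, SETDB1, the HP1 genes, deacetylases, DNA methyltransferases, SUMO genes and others) were detected. DNMT3A, a de novo DNA methyltransferase, was the only called gene, through a probe at -3.68 and -3.27 in TIA1-, -3.67 and -3.78 in TIAR- and -4.67 and -4.88 in HuR-expressing cells. It was higher by 1.31 in TIA1- (adjusted p = 0.0094 from limma) and by 1.05 in TIAR-expressing cells (adjusted p = 0.010 from limma). The median difference of the list from HuR was 0.15 for TIA1 and 0.01 for TIAR.

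Zinc finger genes are similar in sequence, and the 60-base probes were therefore compared with each other. No member probe was within 6 edits of a probe of another gene, and 17 were within 12. These 17 include a ZNF726 probe and a ZNF254 probe that was not called. Hybridization to transcripts of relatives was not tested.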

How the data were processed

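RNA of 4 FT293 lines was hybridized to 8 one-colour Agilent SurePrint G3 arrays on 1 slide, 2 per line. The authors deposited the output of Feature Extraction 10.7.3.1, whose processed signal is an intensity after subtraction of background and detrending. They also deposited log2 values whose distribution is identical on both TIAR arrays and differs from that of the remaining arrays. The processing notes name limma.

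Processed signals were put on the log2 scale, outlier spots were left out, spots of a probe were averaged and the array's 75th percentile was subtracted. Tests were made on the 4 arrays of each comparison in R 4.3.3 with limma 3.58.1 and adjusted over all tested probes. Plots were drawn with matplotlib 3.10.9. The number of arrays limits the precision. In simulated data with 200 probes changed by log2 1.5 or 3, sizes above the 2-fold threshold, limma recovered 195 (TIA1 versus HuR), 194 (TIAR versus HuR) and 193 (TIAR versus TIA1), with 7, 5 and 6 false calls. Of the 100 changed by log2 1.5 it recovered 95, 94 and 94. Recovery of changes nearer the threshold was not tested. The simulated noise was normal, independent between arrays and of equal size in both lines, which is the form limma assumes. Recovery where the arrays depart from this form was therefore not tested, and comparisons with GFP were not simulated. Positions are those of the array design, and exons were not assigned, as no genome was used.

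Members and lists were chosen with earlier results of these data known. Named are the 8 called genes with the largest change in each direction of a comparison, genes detected in some lines only with a bound of at least 4-fold, members with a known role, runs of at least 3 called neighbours, and called cofactors. Further genes called or not detected in a line, and the genes that set a line apart were named after their values were seen.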

Additional observations from a re-analysis of the deposited data

Results flagged for a closer look

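The effects of TIA1 and TIAR against the same HuR arrays differed at 4 probes, by the direct limma comparison of the TIA lines. TIAR minus TIA1 was -2.82 for ZNF257, -1.21 for ZNF738, -1.16 for ZNF730 and -1.02 for ZNF254 on the log2 scale. All 4 lie in block 4, and for each of them both TIAR arrays were below both TIA1 arrays. For ZNF257, ZNF738 and ZNF254 another probe of the gene was not called.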

How the results depend on the processing

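No direction of a named gene reversed under the alternatives run in a comparison where it was called, but calls were often lost. The call of a named probe was lost in 49 pairs of probe and setting for TIA1 versus HuR. It was lost in 56 for TIAR versus HuR and in 36 for TIAR versus TIA1. Where a named gene was not called, its sign changed in some pairs of probe and setting. Such pairs numbered 7 (TIA1 versus HuR), 8 (TIAR versus HuR) and 14 (TIAR versus TIA1). Against GFP they numbered 4 (TIA1), 7 (TIAR) and 10 (HuR). Calls between TIA1 and HuR numbered 30, and 14 with normexp, 11 with normexp and quantile normalization, 12 in the authors' values, 16 by the methods' paired t-test (0 after Benjamini-Hochberg) and 22 to 32 without each array in turn. Between TIAR and HuR they numbered 11, and 6, 4 and 5 in the same scalings, 5 with all 8 arrays in one fit, 0 by the paired t-test after Benjamini-Hochberg and 3 to 14 without each array. Between TIAR and TIA1 they numbered 4, and 2 with normexp, 1 with normexp and quantile normalization, 0 without the filter on dim probes, 1 with all 8 arrays, 0 by the paired t-test after Benjamini-Hochberg and 0 to 1 without each array. Against GFP, TIA1 had 0 calls, and 4 with normexp, 5 among probes well above background on all 4 arrays, 30 with all 8 arrays, 9 by the paired t-test and 1 to 78 without each array. TIAR had 0, and 1, 1, 10, 3 and 1 to 51 under these settings, and HuR had 0, and 9 with all 8 arrays, 5 by the paired t-test and 2 to 55 without each array. Over all probes, 3811 of 28739 were called between TIA1 and HuR. With normexp, with normexp and quantile normalization and in the authors' values it was 2124, 1698 and 1688. Between TIAR and HuR it was 2896 of 29096, and 1576, 1200 and 1260. Between TIAR and TIA1 it was 667 of 28059, and 324, 306 and 316. Against GFP with all 8 arrays it was 2628 of 28040 (TIA1), 1715 of 28600 (TIAR) and 1098 of 28868 (HuR). The cause was not tested.

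With the replicate block, calls numbered 29 (TIA1 versus HuR), 10 (TIAR versus HuR), 0 (TIAR versus TIA1), 8 (TIA1 versus GFP), 5 (TIAR versus GFP) and 4 (HuR versus GFP). Over all probes they numbered 3813, 2913, 0, 1342, 912 and 1087 in the same order. Same-numbered arrays correlated in their deviations between -0.2 and 0.16, so the numbers were not taken as pairs. The 9 genes detected in some lines only were 9 to 22 without each array in turn, 22 without GFP 2. With a gap of 0.5 Mb there were 10 blocks with 231 genes. The median of all probes was -2.17 on GFP 1 and between -4.12 and -3.80 on the other arrays.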
